A study of Mus musculus with 32 samples.

Results

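The antioxidant and glutathione enzymes were followed in microglia of rTg4510 tau transgenic and wild type (WT) mice through 10 named genes: Gclc, Gclm, Gpx1, Gpx4, Prdx1, Prdx5, Txnrd1, Sod1, Sod2 and Gsto1. The genes were taken by name, with no threshold on their values, and all 10 were among the 18588 genes measured. rTg4510 mice carry human tau with a frontotemporal dementia mutation behind a tetracycline-responsive element, together with a tetracycline-controlled transactivator under the CaMKIIα promoter, so the transgene is expressed in forebrain neurons and not by design in the microglia. The controls were littermates with neither transgene, labelled 129/FVB F1. All mice were female and were 2, 4, 6 or 8 months old, and each library was made from CD11b bead-isolated cells of pooled forebrains. The comparison asked how expression of these enzymes differed between the genotypes at each age and whether that difference changed with age. Each genotype had 4 libraries at 2 months and again at 6 months, and 3 at each of the remaining ages, 28 in all. The values are log2 gene signals with the same median of 5.63 in each library, and they carry no read counts. The study's methods give 1 approximate sequencing depth for all libraries, and the depth of each library was not available from the files.

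Reduced glutathione is the main small thiol of the cell. It is made in successive steps, the first of them catalysed by glutamate-cysteine ligase, and it supplies electrons to glutathione peroxidases, which reduce hydrogen peroxide and lipid peroxides. Peroxiredoxins remove peroxides with electrons from thioredoxin, which thioredoxin reductase recharges from NADPH, and superoxide dismutases form the hydrogen peroxide that both systems consume. Many of these genes are known targets of the transcription factor NRF2, which binds antioxidant response elements, and microglia are a known source of superoxide through their NADPH oxidase.

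Because NRF2 acts through antioxidant response elements, the promoters of the 10 genes were searched for the core of that element, TGACNNNGC, on both strands. RefSeq promoter windows of build GRCm38.p6, 250 bases before to 50 bases after a transcript start, were at hand for 9 of the 10 genes, with 14 windows in all. Gclc was the gene without one. The core was found in 4 of the 9, and the stretches around the matches are shown to give the letters behind this count. Of the 4 genes with a match 3 were up-regulated at one age or more (Prdx1, Txnrd1 and Sod1), and of the 5 with a window and no match 3 were as well (Gsto1, Prdx5 and Sod2). Each stretch is the plus strand of the genome, which is also the strand of the gene, with 40 bases on either side of the match in lower case and the match in capitals. All 4 matches read TGACNNNGC on the opposite strand.
Gclm: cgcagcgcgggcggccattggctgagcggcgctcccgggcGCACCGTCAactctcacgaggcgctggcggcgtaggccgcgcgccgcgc
Prdx1: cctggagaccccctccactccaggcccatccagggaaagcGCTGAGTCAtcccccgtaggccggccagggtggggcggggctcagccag
Txnrd1: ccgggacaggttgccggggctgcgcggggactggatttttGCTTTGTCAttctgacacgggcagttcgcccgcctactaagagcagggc
Sod1: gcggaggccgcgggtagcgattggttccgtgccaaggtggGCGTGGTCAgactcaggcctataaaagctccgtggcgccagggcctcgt

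These stretches lie at chr3:122245383-122245471 for Gclm, chr4:116685426-116685514 for Prdx1, chr10:82859074-82859162 for Txnrd1 and chr16:90220666-90220754 for Sod1. The matches begin 134, 133, 92 and 56 bases before the transcript start, in that order, and the Txnrd1 match is in 1 of the gene's 3 windows. The match of Prdx1 also holds an AP-1 sequence, TGANTCA, and a further AP-1 match lies 237 bases before its start. No other of the 9 genes had an AP-1 match, and the E-box CACGTG was in none of them. Among all 27025 genes with a window, 14% had a TGACNNNGC match, 8.97% an AP-1 match and 8.09% an E-box. A match is a description of the letters and not of binding.

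In rTg4510 microglia, 6 of the 10 enzymes were up-regulated at one age or more and none was down-regulated at any age, beside 14.1% of all genes up-regulated and 11.1% down-regulated at one age or more. The differentially expressed genes (DEGs) were those whose false discovery rate (FDR) was under 0.05 and whose change exceeded 1.5 fold. Gsto1 was up-regulated at all 4 ages, with a 2-month call that several alternatives ended, Prdx1 at 4, 6 and 8 months, Sod1 at 6 and 8 months, Prdx5 and Sod2 at 6 months, and Txnrd1 at 8 months. Gclc, Gclm, Gpx1 and Gpx4 were not DEGs at any age. The up-regulated members thus numbered 1 of 10 at 2 months, 2 at 4 months, 5 at 6 months and 4 at 8 months. Among all genes, 1.58%, 9.47%, 11.3% and 10.5% were up-regulated at the same ages, and 0.403%, 4.33%, 8.54% and 5.37% were down-regulated. The median log2 fold change of the 10 members was 0.21, 0.24, 0.54 and 0.51 at 2, 4, 6 and 8 months, beside 0.01, -0.04, -0.04 and -0.01 for all genes. Samples are bulk RNA of isolated cells, so fewer cells of a type and less RNA per cell cannot be told apart.

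**Figure D1:**
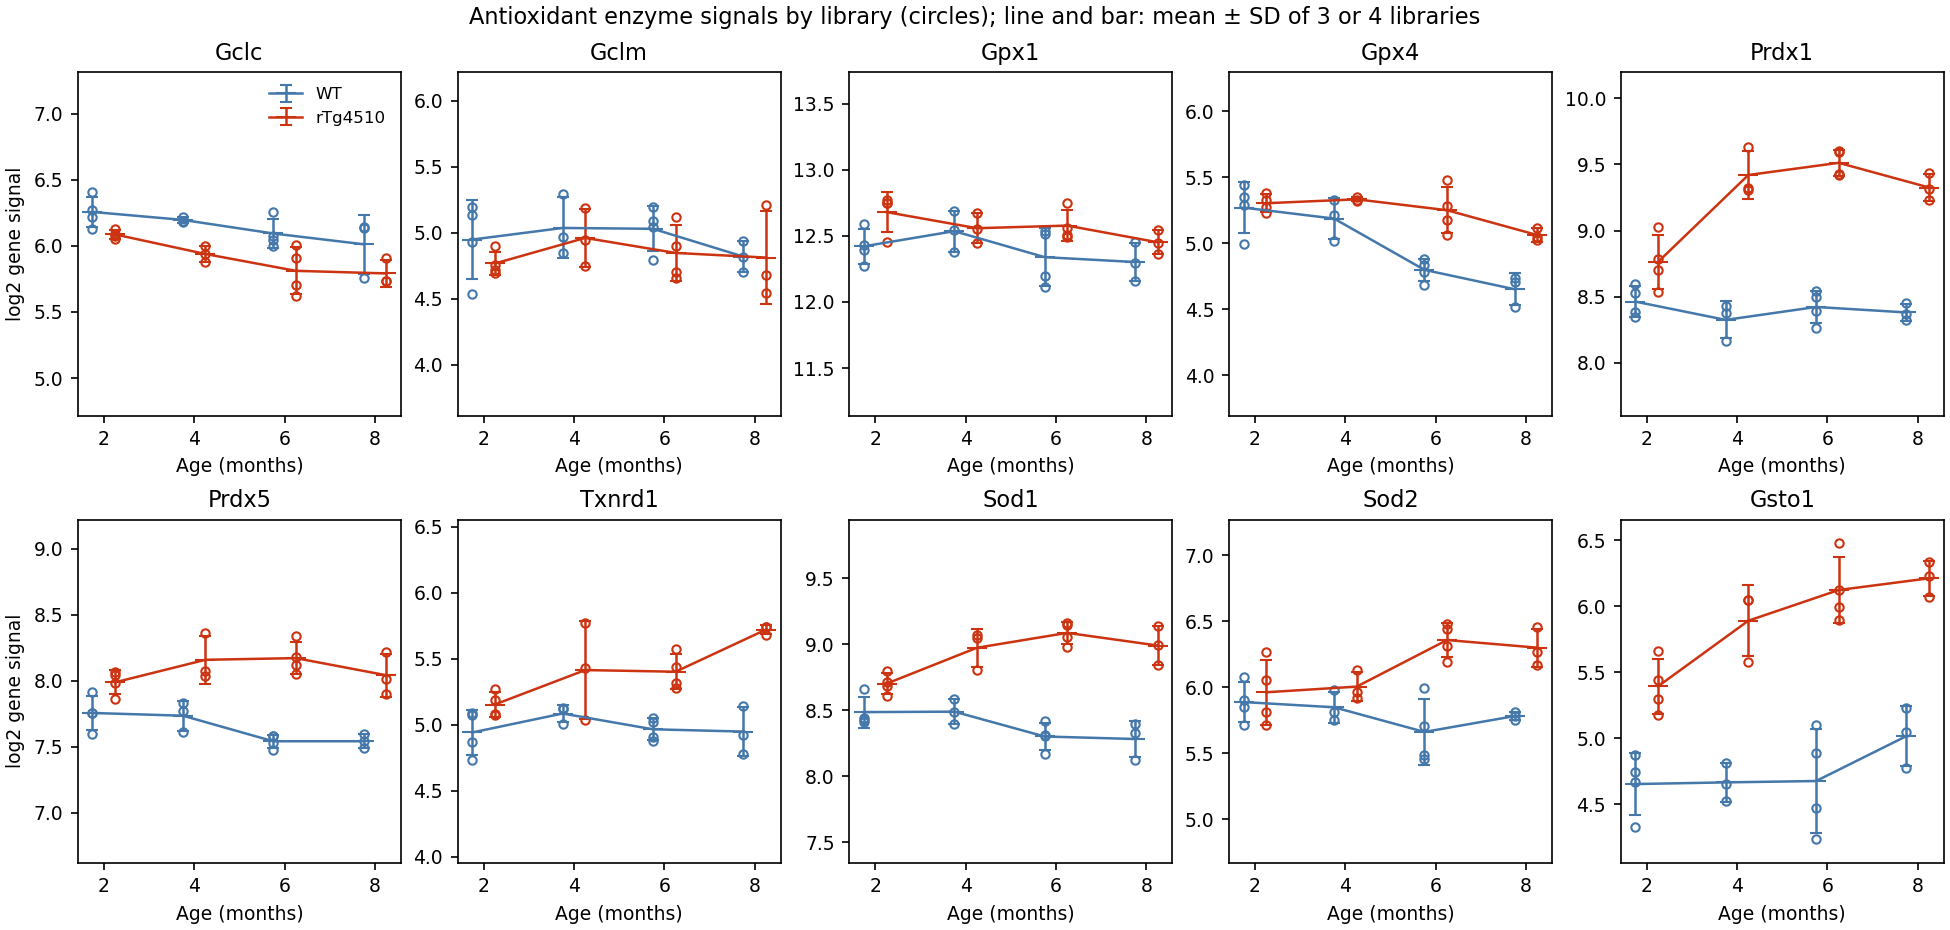
The log2 gene signal of each enzyme (vertical axis, 2.6 log2 units in every panel) is plotted against age in months for WT (blue) and rTg4510 (red) microglia; circles are libraries, and lines and bars are the mean ± SD of 3 or 4 libraries. The genotypes part at 2 months for Gsto1 and at 4 months for Prdx1, while Gclc and Gclm show no rTg4510 group above WT.

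Glutamate-cysteine ligase is the rate-limiting enzyme of glutathione synthesis, with Gclc coding for its catalytic and Gclm for its modifier subunit. Neither subunit was a DEG. The Gclc signal (chr9:77754535-77794489) was 6.22, 6.13, 6.27 and 6.41 in the WT libraries at 2 months and 6.13, 6.08, 6.05 and 6.09 in rTg4510. At 4 months it was 6.18, 6.22 and 6.19 in WT and 5.94, 5.88 and 6.00 in rTg4510. The rTg4510 libraries lay below all WT libraries at 4 months, and at 2 months the highest of them fell just short of the lowest WT library. At 6 months the values were 6.25, 6.00, 6.04 and 6.08 in WT and 5.62, 5.91, 5.71 and 6.01 in rTg4510. At 8 months they were 6.14, 5.76 and 6.14 in WT and 5.73, 5.73 and 5.91 in rTg4510, so the groups overlapped at both later ages. Successive log2 fold changes were -0.17, -0.26, -0.28 and -0.22, with SEs of 0.09 to 0.10. It passed the FDR alone at 6 months (FDR = 0.0156), where the change was 1.22 fold.

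The Gclm signal (chr3:122245487-122267215) ranged from 4.54 to 5.29 over the 14 WT libraries and from 4.55 to 5.21 over the 14 rTg4510 libraries. The genotypes overlapped at every age. From 2 to 8 months the log2 fold changes were -0.18, -0.08, -0.18 and -0.01, and their 95% intervals were -0.51 to 0.15, -0.45 to 0.30, -0.51 to 0.15 and -0.39 to 0.37. The pseudogene Gm6061 overlaps Gclm and was itself a DEG, with log2 fold changes of 0.78, 0.79 and 0.64 at 4, 6 and 8 months that quantile normalization reduced to 0.23, 0.11 and 0.03. Whether reads were counted by strand is not given in the sources used here, so reads of the overlapping pair may not have been told apart.

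Of the glutathione peroxidases, Gpx1 codes for the abundant cytosolic enzyme that reduces hydrogen peroxide and Gpx4 for the enzyme that reduces lipid hydroperoxides in membranes and guards against ferroptosis. The Gpx1 signal (chr9:108339080-108340342) in WT was 12.59, 12.27, 12.39 and 12.43 at 2 months, 12.69, 12.38 and 12.54 at 4 months, 12.11, 12.19, 12.54 and 12.51 at 6 months, and 12.30, 12.45 and 12.16 at 8 months. In rTg4510 it was 12.77, 12.46, 12.75 and 12.75, then 12.55, 12.45 and 12.68, then 12.51, 12.56, 12.49 and 12.75, and at 8 months 12.36, 12.54 and 12.45. The groups overlapped at every age. Log2 fold changes of Gpx1 were 0.26 (FDR = 0.194), 0.02 (FDR = 0.926), 0.24 (FDR = 0.0858) and 0.15 (FDR = 0.408) from 2 to 8 months. With the replicate block the 6-month FDR was 0.0291, and the change stayed under 1.5 fold. No direction can be given for Gpx1, since quantile normalization of the same libraries gave -0.02, -0.53, -0.43 and -0.44, with FDRs of 0.959, 9.53e-05, 0.00011 and 0.000542.

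The Gpx4 signal (chr10:80047166-80056439) lay apart between the genotypes at the 2 later ages. WT values were 5.35, 5.29, 5.0 and 5.44 at 2 months and 5.33, 5.22 and 5.02 at 4 months, then 4.84, 4.78, 4.69 and 4.88 at 6 months and 4.51, 4.71 and 4.73 at 8 months. rTg4510 values were 5.38, 5.23, 5.27 and 5.33 at 2 months, 5.32, 5.35 and 5.32 at 4 months, 5.28, 5.48, 5.06 and 5.17 at 6 months, and 5.04, 5.12 and 5.02 at 8 months. The genotypes overlapped at 2 and 4 months and were separate at 6 and 8 months. The genotype difference was 0.45 on the log2 scale (SE 0.09, FDR = 0.000452) at 6 months and 0.41 (SE 0.10, FDR = 0.00505) at 8 months, both under 1.5 fold, after 0.03 and 0.15 at the earlier ages. With all 32 libraries the 8-month difference was 0.33 and did not pass the FDR (0.0954). The excluded WT library of 8 months had 5.15, above the rTg4510 libraries kept. The difference of WT at 6 from WT at 4 months was -0.39 (SE 0.10), which did not pass the test (FDR = 0.146). The table also held 2 pseudogenes of Gpx4, and Gpx4-ps2 had log2 fold changes of 0.53 and 0.45 at 6 and 8 months. The assignment of reads among the copies is uncertain.

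Both peroxiredoxins were up-regulated, Prdx1 from 4 months on and Prdx5 at 6 months. Prdx1 codes for a cytosolic peroxiredoxin that scavenges peroxide and is itself a stress-induced gene. Its signal (chr4:116685599-116700000) in WT was 8.59, 8.38, 8.35 and 8.52 at 2 months, 8.43, 8.37 and 8.16 at 4 months, 8.26, 8.39, 8.54 and 8.49 at 6 months, and 8.32, 8.45 and 8.36 at 8 months. The rTg4510 libraries had 8.70, 8.78, 9.03 and 8.53 at 2 months, 9.32, 9.63 and 9.31 at 4 months, 9.43, 9.59, 9.61 and 9.42 at 6 months, and 9.31, 9.43 and 9.23 at 8 months. At 2 months 1 rTg4510 library lay among the WT libraries, and from 4 months on the groups were far apart. The log2 fold change of Prdx1 was 0.30 (SE 0.10, FDR = 0.0797) at 2 months, 1.10 (SE 0.11, FDR = 2.04e-07) at 4 months, 1.09 (SE 0.10, FDR = 1.26e-08) at 6 months and 0.95 (SE 0.11, FDR = 1.16e-06) at 8 months, so the level was 2.14 fold that of WT at 4 months and 1.93 fold at 8 months. In ascending order the 4 WT means lay between 8.32 and 8.46, followed by rTg4510 at 2 months (8.76 ± 0.21, SD) and the 3 later rTg4510 groups between 9.33 and 9.51. Neighbours within the WT set and within the later rTg4510 set did not differ beyond their spread. The long non-coding RNA gene AV051173 overlaps Prdx1 and was not a DEG at any age, with 1.05 (FDR = 0.0729) at 8 months. A pseudogene of Prdx1 was not among the genes measured. The assignment of reads is thus uncertain for Prdx1 as well.

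Prdx5 codes for a peroxiredoxin of mitochondria, peroxisomes and cytosol. Its signal (chr19:6906697-6910106) in WT was 7.92, 7.60, 7.76 and 7.75 at 2 months, 7.83, 7.77 and 7.61 at 4 months, 7.48, 7.58, 7.58 and 7.53 at 6 months, and 7.49, 7.59 and 7.54 at 8 months. Libraries of rTg4510 had 8.04, 7.98, 8.07 and 7.86 at 2 months, 8.08, 8.37 and 8.04 at 4 months, 8.05, 8.12, 8.34 and 8.18 at 6 months, and 8.01, 8.22 and 7.90 at 8 months. The groups overlapped at 2 months alone. Prdx5 differed by a log2 fold change of 0.23 (FDR = 0.124), 0.42 (FDR = 0.0023), 0.63 (SE 0.08, FDR = 3.52e-06) and 0.50 (FDR = 0.000411), and it passed 1.5 fold at 6 months only. That call was close to the fold limit of 0.585 on the log2 scale: the value was 0.57 without rTg4510 replicate 3 and 0.54 after quantile normalization. Trmt112, a methyltransferase cofactor gene that overlaps Prdx5, had a log2 fold change of 0.54 at 6 months and was not a DEG.

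Txnrd1, the cytosolic thioredoxin reductase, is a selenoprotein and keeps thioredoxin reduced. Its signal (chr10:82833951-82897724) in WT was 4.87, 5.09, 5.07 and 4.73 at 2 months, 5.01, 5.12 and 5.13 at 4 months, 4.88, 4.91, 5.05 and 5.02 at 6 months, and 5.14, 4.92 and 4.78 at 8 months. In rTg4510 it was 5.08, 5.27, 5.18 and 5.08 at 2 months, 5.43, 5.04 and 5.77 at 4 months, 5.57, 5.32, 5.28 and 5.44 at 6 months, and 5.68, 5.74 and 5.74 at 8 months. The 4-month rTg4510 libraries were spread widely and 1 of them lay among the WT libraries, whereas at 6 and 8 months the genotypes were separate. For Txnrd1 the log2 fold change was 0.21 (FDR = 0.389), 0.33 (FDR = 0.0846), 0.44 (SE 0.12, FDR = 0.00561) and 0.77 (SE 0.13, FDR = 0.000132). The last value is 1.71 fold and was the only one to pass both limits. When each library was left out, the 4-month value ranged from 0.15 to 0.52. Eid3, a gene within the Txnrd1 locus, was a DEG at 6 and 8 months with log2 fold changes of 0.84 and 0.93, so part of either signal may be shared.

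Of the 2 superoxide dismutases, Sod1 was a DEG at 2 ages and Sod2 at 1. Sod1 codes for the copper and zinc enzyme of the cytosol. Its signal (chr16:90220762-90226333) in WT was 8.66, 8.44, 8.43 and 8.41 at 2 months, 8.58, 8.40 and 8.49 at 4 months, 8.17, 8.30, 8.31 and 8.42 at 6 months, and 8.13, 8.39 and 8.32 at 8 months. In rTg4510 it was 8.80, 8.71, 8.61 and 8.68 at 2 months, 8.80, 9.04 and 9.07 at 4 months, 8.98, 9.06, 9.14 and 9.16 at 6 months, and 8.84, 9.13 and 9.0 at 8 months. The groups overlapped through 1 high WT library at 2 months and were separate at the other ages. Genotype differences of Sod1 on the log2 scale were 0.22 (FDR = 0.142), 0.48 (SE 0.09, FDR = 0.000453), 0.78 (SE 0.08, FDR = 8.91e-08) and 0.71 (SE 0.09, FDR = 4.02e-06), the last 2 being DEG calls of 1.72 and 1.63 fold. After quantile normalization the 8-month value was 0.57, under the fold limit.

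Sod2 codes for the manganese enzyme of mitochondria and is a known NF-κB target. Its signal (chr17:13007839-13018119) in WT was 5.90, 6.08, 5.72 and 5.85 at 2 months, 5.98, 5.81 and 5.75 at 4 months, 5.99, 5.49, 5.71 and 5.46 at 6 months, and 5.75, 5.78 and 5.81 at 8 months. In rTg4510 it was 6.05, 6.26, 5.81 and 5.71 at 2 months, 6.13, 5.92 and 5.96 at 4 months, 6.19, 6.48, 6.31 and 6.44 at 6 months, and 6.46, 6.27 and 6.17 at 8 months. The genotypes overlapped at 2 and 4 months and not at 6 and 8 months. The log2 fold change was 0.07 (FDR = 0.855), 0.16 (FDR = 0.47), 0.70 (SE 0.12, FDR = 0.000103) and 0.52 (SE 0.14, FDR = 0.00799), with a DEG call at 6 months. The change of the genotype effect from 4 to 6 months was 0.54 (SE 0.18), with an unadjusted p of 0.0083 from limma and an FDR of 0.367.

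Gsto1, omega class glutathione S-transferase 1, uses glutathione to reduce disulfides and dehydroascorbate. In the 28 libraries it had the largest log2 fold change of the 10 members at every age. With all 32 libraries Prdx1 (1.32) was above Gsto1 (0.85) at 4 months. The Gsto1 signal (chr19:47854973-47864790) in WT was 4.87, 4.75, 4.33 and 4.67 at 2 months, 4.66, 4.53 and 4.82 at 4 months, 4.89, 4.24, 4.47 and 5.11 at 6 months, and 4.78, 5.23 and 5.05 at 8 months. In rTg4510 it was 5.66, 5.30, 5.44 and 5.18 at 2 months, 5.58, 6.05 and 6.05 at 4 months, 6.00, 6.12, 6.48 and 5.90 at 6 months, and 6.07, 6.33 and 6.23 at 8 months. Every rTg4510 library was above every WT library of its age, already at 2 months. The log2 fold change was 0.74 (SE 0.18, FDR = 0.0129), 1.22 (SE 0.21, FDR = 0.000119), 1.45 (SE 0.18, FDR = 1.43e-06) and 1.19 (SE 0.21, FDR = 0.00013), or 1.67, 2.34, 2.73 and 2.29 fold. The 2-month call was lost without rTg4510 replicate 1 (log2 fold change 0.65, FDR = 0.0581) and without WT replicate 3 (0.63, FDR = 0.0603). It was also lost with the replicate block (FDR = 0.0527), with all 32 libraries (FDR = 0.2) and with only the groups compared (FDR = 0.0775). In ascending order the WT means were 4.65, 4.67, 4.68 and 5.02 at 2, 4, 6 and 8 months and the rTg4510 means 5.39, 5.89, 6.12 and 6.21. With all 28 libraries no neighbouring ages of either genotype differed past the test. Without rTg4510 replicate 1 of 4 months Gsto1 passed from 2 to 4 months in rTg4510.

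**Figure D2:**
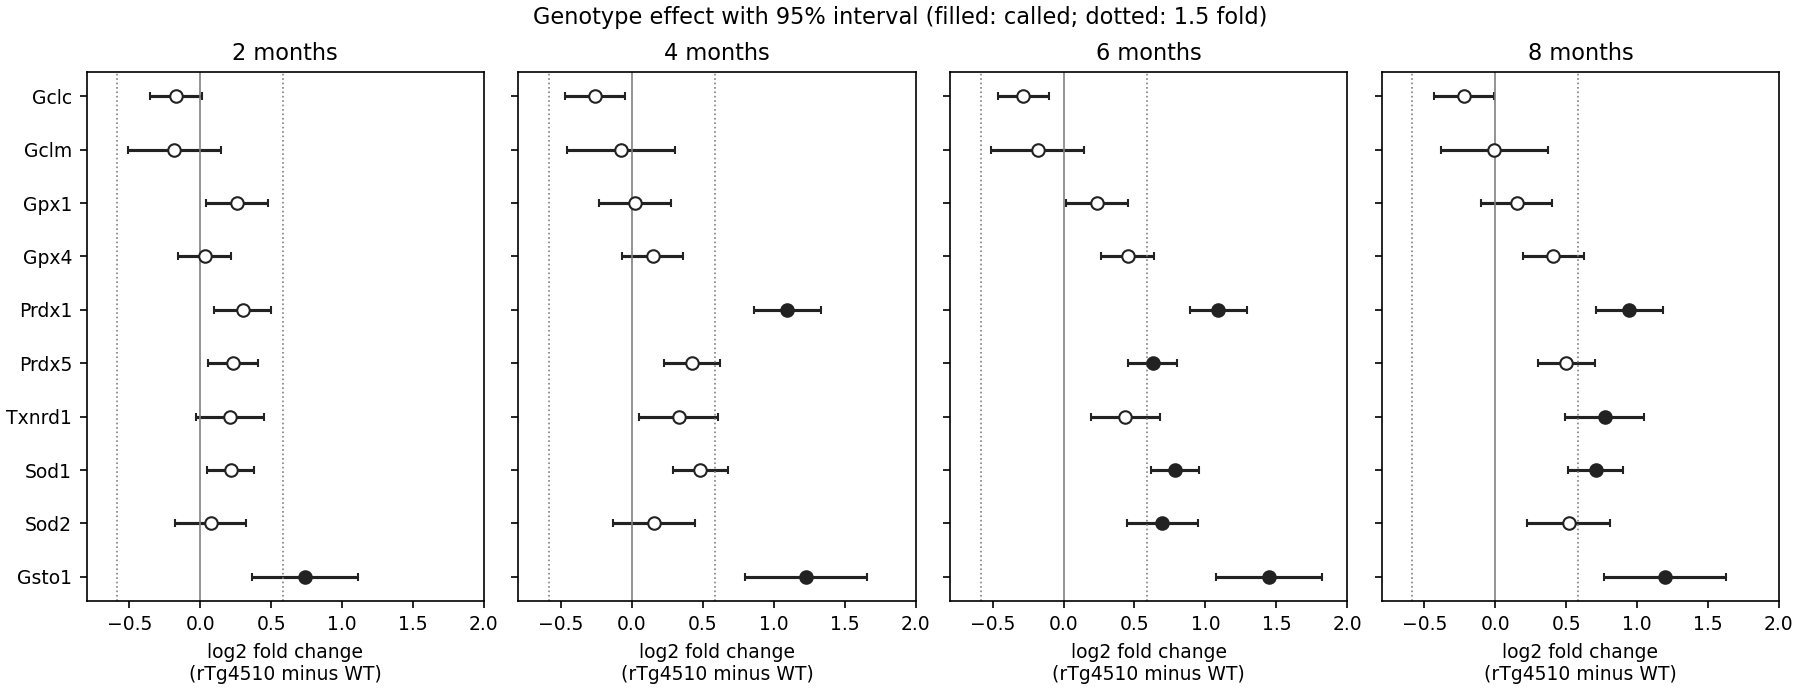
The log2 fold change of rTg4510 over WT (horizontal axis) is drawn for each enzyme at 2, 4, 6 and 8 months with its 95% interval; filled points are DEGs and dotted lines mark 1.5 fold in either direction. Gsto1 and Prdx1 lie farthest to the right from 4 months on, between 0.95 and 1.45, and Gclc and Gclm lie left of 0 at each age.

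The groups did not overlap for 2 members at 2 months, Gsto1 above WT and Gclc below it. This was so for 4 members above and 1 below at 4 months, and for 7 members above and none below at both 6 and 8 months. Of all genes, 11%, 36.6%, 32.8% and 36.7% did not overlap in one direction or the other at 2, 4, 6 and 8 months. Separate groups were therefore common in this table from 4 months on, and the separate members at 4 months, 5 of 10, were not far from that background.

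When the genotype effects of neighbouring ages were compared, Prdx1 was the member whose effect changed. Its genotype effect was larger at 4 than at 2 months by 0.80 (SE 0.15, FDR = 0.0019). Among all genes, 4.66% changed their genotype effect between 2 and 4 months, 0.156% between 4 and 6 months and 0% between 6 and 8 months. At the later steps 0 members passed, with 3 of 10 members under an unadjusted p of 0.05 from limma at the step from 4 to 6 months and 0 at the next. Of all genes, 8.15% and 4.52% were under that p at the same steps. Neighbouring steps share the libraries of the age between them. The effect of Gsto1 changed by 0.48 (SE 0.27, FDR = 0.353) from 2 to 4 months, so its early and later effects were not shown to differ.

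Within a genotype, Prdx1 rose in rTg4510 microglia by 0.66 (SE 0.11, FDR = 0.000174) from 2 to 4 months. This call was lost with quantile normalization (0.55), without rTg4510 replicate 4 of 2 months (0.58) or replicate 2 of 4 months (0.55), and with only the groups compared (FDR = 0.0748). Sod1 differed in the same step by 0.27 (SE 0.09, FDR = 0.0369), less than 1.5 fold and not a DEG call. Its FDR was above 0.05 with moderated variance (0.0507), quantile normalization (0.139) and only the groups compared (0.141) and without any of 5 libraries (0.0648 to 0.169). The share of all genes that changed within rTg4510 was 6.39% from 2 to 4 months, 0.818% from 4 to 6 months and 0.00538% from 6 to 8 months, and no member changed after 4 months. In WT microglia 0 members passed at any step, where 0.0484%, 0.00538% and 0% of all genes changed. The unadjusted limma p was under 0.05 for 0, 3 and 0 of the 10 members at the WT steps, beside 10.2%, 8.65% and 9.78% of all genes. The 3 were Gpx4, Prdx5 and Sod1, with differences of -0.39, -0.19 and -0.19 from 4 to 6 months.

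Across the 28 libraries, Gsto1, Prdx1, Prdx5 and Sod1 followed each other. Pearson's r was 0.92 between Prdx5 and Sod1, 0.91 between Prdx1 and Sod1, 0.91 between Gsto1 and Prdx1 and 0.89 between Prdx1 and Prdx5. These libraries share genotype and age, and after the group means were subtracted the same pairs had r of 0.50, 0.32, 0.30 and 0.77. The pair of peroxiredoxins thus varied together also among libraries of 1 group. Gclc ran opposite to Gsto1 over all libraries (r = -0.75) and not within groups (r = -0.12).

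**Figure D3:**
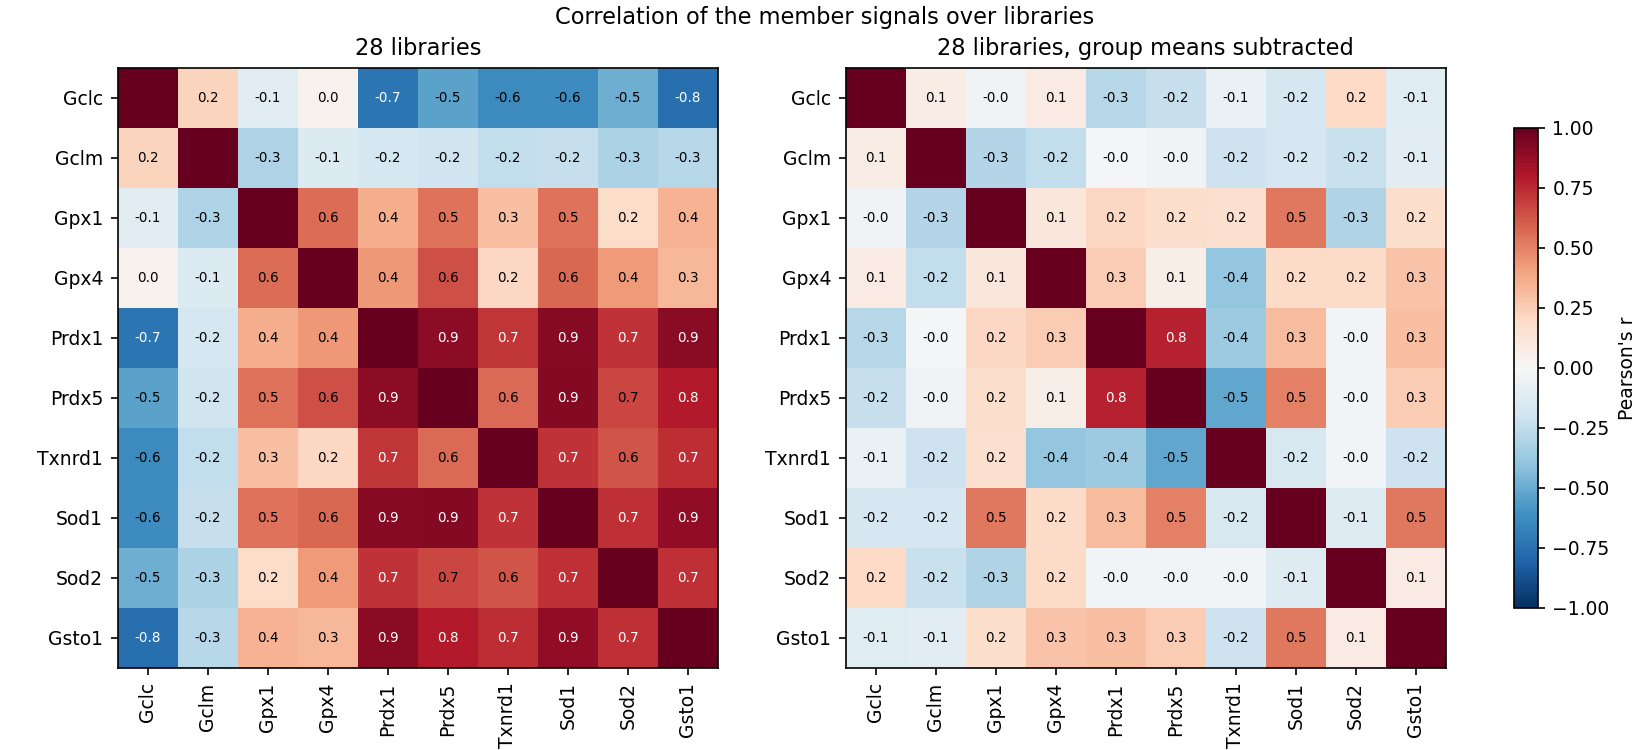
Pearson's r between the log2 signals of each pair of enzymes is coloured over 28 libraries (left) and after subtraction of the group means (right), with red for positive and blue for negative values. The red block of Prdx1, Prdx5, Sod1 and Gsto1 on the left shrinks on the right, where Prdx1 with Prdx5 keeps an r of 0.77.

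Among all genes, the pattern most like that of Prdx1 over the 28 libraries was that of Rpl39, a ribosomal protein gene (r = 0.98), and the most like Prdx5 was Rpl13a, also ribosomal (r = 0.96). Sod1 was nearest to the predicted gene Gm15501 (r = 0.97). The immune surface gene Cd83 was second for Gsto1 (r = 0.95), after the ribosomal pseudogene Rpsa-ps9 (r = 0.96). Sod2 was nearest to the kinase gene Map3k8 (r = 0.83), Gpx1 to the immediate early gene Ier2 (r = 0.89) and Txnrd1 to the arrestin domain gene Arrdc4 (r = 0.88). Gclc was nearest to Idh2, the mitochondrial NADPH-forming isocitrate dehydrogenase (r = 0.88), Gclm to Rprd2 (r = 0.71) and Gpx4 to a gene without a symbol in RefSeq (r = 0.81). The group means were kept in these r, so shared effects of genotype and age enter them. For these nearest genes r within groups was not computed.

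The rest of the pathway was described with 8 wider lists. Counts over one age or more are to be read beside the 14.1% and 11.1% of all genes up-regulated and down-regulated at one age or more. The 115 genes of the lists gave 69 DEG calls over the 4 ages, of which 32 held under all 34 alternatives, 28 of them leaving out a single library, and 37 were lost under one or more. Calls given below without a limit are among the 32. Of the 391 values that were not DEG calls, 41 became one under some alternative. Of 16 measured genes of glutathione synthesis and breakdown, 3 were up-regulated at one age or more, 2 were down-regulated and 11 were never DEGs. Ggct, which forms 5-oxoproline in glutathione breakdown, was up-regulated at all 4 ages with log2 fold changes of 0.59, 0.70, 0.74 and 0.87. Its 2-month value was just above the fold limit, and that call was lost with the replicate block (FDR = 0.115), all 32 libraries (FDR = 0.181), only the groups compared (FDR = 0.321) and without any of 6 of the 8 libraries of that age. Its 4-month call was lost with only the groups compared (FDR = 0.0804) and without WT or rTg4510 replicate 4 (FDR = 0.0589 and 0.0563). Chac1, which cleaves glutathione, was up-regulated at 4 and 6 months, but WT libraries lay near the lowest values measured and its size is not given. Its 4-month call was lost with all 32 libraries (FDR = 0.153) and without rTg4510 replicate 4 (FDR = 0.0671) or WT replicate 1 (FDR = 0.085), both calls were lost with only the groups compared (FDR = 0.101 and 0.0597), and it was not tested once low genes were left out. The leucine aminopeptidase Lap3 was up-regulated at 6 months (0.66), though not with all 32 libraries (FDR = 0.341). Ggt5, a gamma-glutamyl transferase that acts on leukotriene C4, was down-regulated by -0.86, -0.99 and -0.97 at 4, 6 and 8 months, and the transporter Abcc5 by -0.59 at 6 months. The Abcc5 value was at the fold limit and fell inside it without rTg4510 replicate 1 or 3 (-0.57 and -0.54) or WT replicate 1 or 2 (-0.52 and -0.58).

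Of the 12 other peroxidases, catalase and methionine sulfoxide reductases, 4 were up-regulated at one age or more and 1 was down-regulated. Prdx6, a peroxiredoxin that also acts on phospholipids, had log2 fold changes of 0.63, 0.90 and 0.95 at 4, 6 and 8 months. Gpx3, the secreted glutathione peroxidase, was up-regulated at 6 (0.81) and 8 months (1.65), the first of these not with all 32 libraries (FDR = 0.0966). Prdx4, the peroxiredoxin of the endoplasmic reticulum, was up-regulated at 4 months alone (1.01), and its genotype effect grew by 0.77 from 2 to 4 months (FDR = 0.00324). Msrb1 (0.80) was a DEG at 6 months by a call that the replicate block (FDR = 0.0695), only the groups compared (FDR = 0.0806) and leaving out any of 5 single libraries ended. Msrb3 (-1.10, FDR = 0.0471) passed there narrowly, and its call was lost with all 32 libraries, quantile normalization or only the groups compared (FDR = 0.0679, 0.0579 and 0.156) and in 19 of the 28 fits that left out a library. The 4-month call of Prdx6 was lost without WT replicate 4 (0.45) and without rTg4510 replicate 2 (0.46), and with only the groups compared its 4-month and 8-month calls were lost (FDR = 0.209 and 0.154).

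In the thioredoxin and glutaredoxin system, 5 of 16 genes were up-regulated at one age or more, 2 were down-regulated and 9 were never DEGs. Srxn1 codes for sulfiredoxin, which restores overoxidized peroxiredoxins, and from 4 to 8 months its mean signal was 6.80, 6.52 and 6.74 in WT against 7.90, 7.73 and 8.49 in rTg4510. Its log2 fold change was -0.35 (FDR = 0.489) at 2 months and 1.11, 1.21 and 1.75 afterwards, and its genotype effect changed by 1.45 from 2 to 4 months (FDR = 0.0102; 0.0544 with only the groups compared). Thioredoxin itself, Txn1, was up-regulated at 4, 6 and 8 months (0.67, 1.0 and 0.86), and Txndc17 at 4 and 6 months (0.89 and 0.77). Txn2 was up-regulated at 4 and 6 months and Glrx at 6 months. The sestrins Sesn1 and Sesn3 were the 2 that fell, Sesn1 by -0.64, -0.62 and -0.63 at 4, 6 and 8 months and Sesn3 by -0.61 at 4 months. With quantile normalization the calls of Txn2 at 6 months (0.58), Glrx (0.58) and Sesn3 (-0.58) were lost. With all 32 libraries those of Txn2 at 6 months (FDR = 0.059), Sesn3 (-0.43) and Sesn1 at 4 months (-0.53) were lost, and with only the groups compared those of Txn1 and Txn2 at 4 months (FDR = 0.114 and 0.135). At 4 months the Txn1 call was lost without WT replicate 4 (0.56), the Txn2 call was lost without rTg4510 replicate 4 or WT replicate 2 (0.56 for both), and the Sesn3 call without rTg4510 replicate 1 (-0.58) or WT replicate 4 (-0.52). At 6 months the Txn2 call was lost without any of 4 libraries (0.51 to 0.58), and at 8 months the Sesn1 call without WT replicate 3 (-0.57). Txnip, which binds and inhibits thioredoxin, was not a DEG, with -0.59 (FDR = 0.0544), -0.49 and -0.46 from 4 to 8 months. It passed at 4 months with moderated variance (FDR = 0.0479), the replicate block (FDR = 0.000576) and low genes left out (FDR = 0.0466), and at all 3 ages with quantile normalization (-0.94, -0.83 and -0.81).

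Of 18 glutathione S-transferases and microsomal relatives, 5 were up-regulated at one age or more and none was down-regulated. At 4, 6 and 8 months 2, 2 and 3 of the 18 were up-regulated, beside 9.47%, 11.3% and 10.5% of all genes. Gstm5 had log2 fold changes of 0.71, 0.80 and 0.69 at 4, 6 and 8 months. Mgst1 (0.94) and Gstt3 (0.81) were up-regulated at 8 months, Mgst3 at 4 months (0.86) and Gstm1 at 6 months (0.75). The Gstt3 call was lost with the replicate block (FDR = 0.0567), with only the groups compared (FDR = 0.264) and without any of 3 libraries of 8 months (FDR = 0.0885 to 0.235). The Mgst1 call was lost without any of 3 libraries of 8 months (FDR = 0.0682 to 0.101) and with only the groups compared (FDR = 0.122). With all 32 libraries Mgst3 at 4 months was 0.12 (FDR = 0.828) and Gstm5 at 8 months did not pass (FDR = 0.0572), and Mgst1 and Mgst3 were not tested once low genes were left out. The Gstm genes are closely similar copies, and reads may have been split among them. The remaining superoxide dismutase, the extracellular Sod3, and the copper chaperone Ccs were not DEGs at any age.

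NRF2 regulators and targets outside the 10 members numbered 23, of which 8 were up-regulated at one age or more, none was down-regulated and 15 were never DEGs. Their up-regulated genes numbered 2, 5, 8 and 8 at the successive ages, beside 1.58%, 9.47%, 11.3% and 10.5% of all genes. The 2 genes at 2 months, Fth1 and Ephx1, fell under the fold limit with quantile normalization (0.56 and 0.58), and Ephx1 was also lost with all 32 libraries (FDR = 0.188) with only the groups compared (FDR = 0.112) and without any of 3 libraries of 2 months. Fth1, the ferritin heavy chain that stores iron, had log2 fold changes of 0.80, 1.51, 1.84 and 1.87, and Ephx1, the microsomal epoxide hydrolase, 0.59, 1.32, 1.30 and 0.64. Srxn1 is in this list as well. Sqstm1, Ftl1, Maff, Hmox1 and Nfe2l2, which codes for NRF2, were the other genes up-regulated. Nfe2l2 passed at 6 (0.62) and 8 months (0.76), and Hmox1, heme oxygenase, at the same ages (0.67 and 0.85). With quantile normalization both Nfe2l2 calls (0.22 and 0.40), the 6-month Hmox1 call (0.56) and the 4-month Ftl1 call (0.39) were lost. With only the groups compared the 6- and 8-month calls of Hmox1 (FDR = 0.0679 and 0.129) and Maff (FDR = 0.0599 and 0.0958) and the 8-month call of Ephx1 (FDR = 0.101) were lost. The 6-month Hmox1 call was also lost without WT replicate 2 (0.49), and the 8-month Ephx1 call without rTg4510 replicate 2 (0.56) or WT replicate 3 (0.54). Ferritin genes have many processed copies, so their levels are uncertain. Chosen after their values were seen, Nqo1 and Slc7a11, both textbook NRF2 targets, were not DEGs at any age, with Slc7a11 at 0.16, 0.29, -0.15 and 0.48 and Nqo1 at 0.87, -0.15, -0.71 and 0.40. The SEs of Nqo1 were 0.68 to 0.79, so its direction could not be told at this precision. Without WT replicate 1 of 8 months, Slc7a11 was a DEG at that age (0.79, FDR = 0.0109).

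Of 17 genes of NADPH supply, 2 were up-regulated at one age or more: Mthfd2, a mitochondrial folate enzyme, at 4, 6 and 8 months (0.88, 0.63 and 0.75) and the NAD kinase Nadk at 8 months (0.64). With the replicate block the Mthfd2 calls at 6 months (FDR = 0.0502) and 8 months (FDR = 0.0553) were lost, and with only the groups compared all 3 were (FDR = 0.0672 to 0.107). Each Mthfd2 call was also lost without any of 2 to 5 single libraries and the 6-month one with all 32 libraries (FDR = 0.0513), and Mthfd2 was not tested once low genes were left out. Of 16 genes of selenoprotein synthesis and other selenoproteins, 2 were up-regulated, Selenom at 4, 6 and 8 months (0.80, 1.0 and 1.18) and Selenow at 6 months (1.05). With all 32 libraries the 6- and 8-month Selenom calls were lost (FDR = 0.17 and 0.118), and with only the groups compared the 8-month one (FDR = 0.0959). None of either list was down-regulated. At 6 months the median log2 fold changes were 0.20 for NADPH supply, 0.09 for the selenoprotein list, 0.14 for the NRF2 list and 0.54 for the other peroxidases, beside -0.04 for all genes. They were 0.165 for glutathione synthesis and breakdown, 0.12 for the thioredoxin system, 0.20 for the glutathione S-transferases and -0.41 for Sod3 and Ccs. The peroxidase median was highest at 6 months, with 0.09, 0.26 and 0.26 at 2, 4 and 8 months. Most genes of the lists were therefore not DEGs, and several genes stand in 2 lists.

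**Figure D4:**
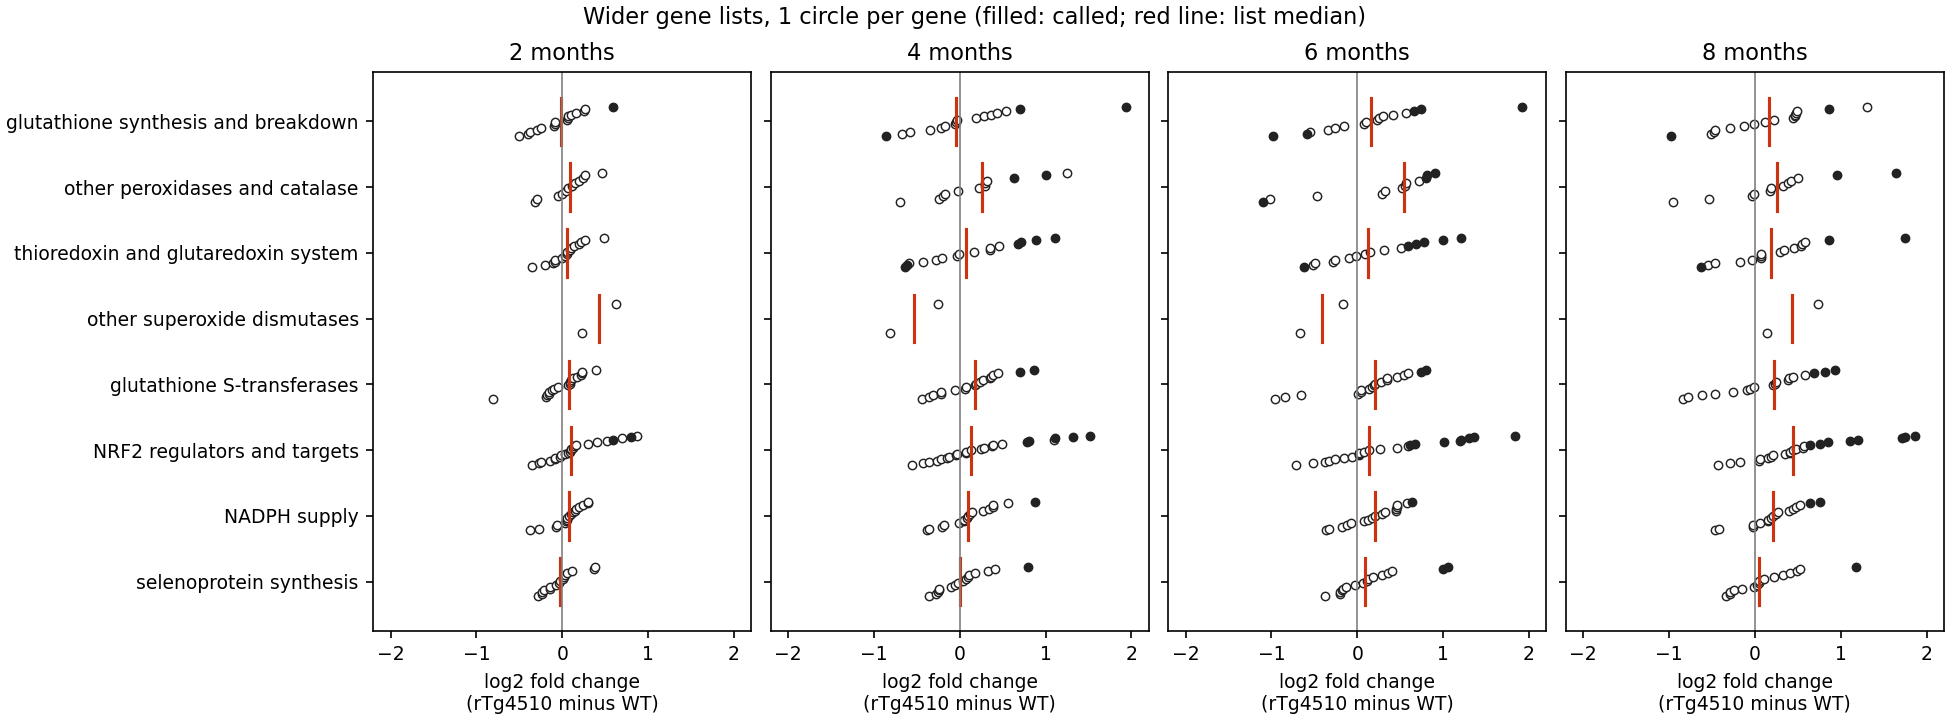
The log2 fold change of rTg4510 over WT (horizontal axis) is shown for each gene of the 8 wider lists at 2, 4, 6 and 8 months; filled circles are DEGs, open circles are not, and the red line is the list median. Filled circles lie mainly to the right of 0, with Ggt5, Abcc5, Msrb3, Sesn1 and Sesn3 to the left.

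The libraries were checked against markers of the labelled cell type and of others that the CD11b beads could hold. All 8 microglia markers were well above the lowest values in all 28 libraries, and Cx3cr1 was the highest of them. The summed microglia markers were lower in rTg4510 by 0.21, 0.26, 0.27 and 0.27 on the log2 scale from 2 to 8 months, with two-sided exact permutation p of 0.0857, 0.1, 0.0286 and 0.1. The smallest p that 3 against 3 libraries allow is 0.1, and 4 against 4 allow 0.0286. Single markers went both ways, with Tmem119 down-regulated at 4, 6 and 8 months (-0.74, -0.78 and -0.72), Itgam down-regulated at 6 months (-0.62) and C1qa, a complement gene, up-regulated at 6 and 8 months (0.70 and 0.73). With quantile normalization the C1qa calls were lost (0.31 and 0.40) and Cx3cr1, P2ry12 and Csf1r passed as lower at 6 and 8 months, and with all 32 libraries the C1qa calls were lost as well (FDR = 0.326 and 0.354). Of the summed lists, neutrophil markers differed most at 6 and 8 months. None of 7 was a DEG at 2 or 4 months and all 7 were down-regulated at 6 and 8 months, and their summed log2 signal differed by 0.05, -1.06, -1.94 and -1.67 from 2 to 8 months (exact permutation p = 0.914, 0.1, 0.0286 and 0.1). Ngp was their most abundant gene. The contrast between 4 months and the later ages depended on the fit. At 4 months S100a9, Camp and Ltf passed with moderated variance (FDR = 0.0447, 0.042 and 0.0406), S100a9 and Camp with low genes left out, Ngp and Ltf with all 32 libraries, and S100a9, Camp or Ltf without any of several single libraries. With only the groups compared Mmp8 was lost at 6 months (FDR = 0.0513) and 5 of the 7 calls were lost at 8 months (FDR = 0.0611 to 0.137), and with all 32 libraries Camp and Retnlg at 8 months (FDR = 0.065 and 0.0932). At 8 months the Ltf call was lost with the replicate block (FDR = 0.0804), and those of S100a8, Ngp, Ltf and Retnlg without rTg4510 replicate 1 (FDR = 0.0702 to 0.137).

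Of 5 genes of dividing cells, 4 were up-regulated at 4 months (Mki67, Top2a, Cdk1 and Birc5), beside 9.47% of all genes, and 1 with only the groups compared. At 6 months 4 were down-regulated (Mki67, Top2a, Ccnb1 and Birc5) and at 8 months 2 (Mki67 and Top2a), beside 8.54% and 5.37% of all genes. The 6-month calls of Ccnb1 and Birc5 were lost with all 32 libraries (FDR = 0.091 and 0.206) and with quantile normalization (FDR = 0.145 and 0.0649), and with only the groups compared those of Ccnb1 at 6 months (FDR = 0.178) and Mki67 at 8 months (FDR = 0.126). Leaving out single libraries also ended the 6-month calls of Ccnb1 (any of 5) and Birc5 (any of 2) and the 8-month call of Mki67 (without WT replicate 2, -0.45). Their summed difference was -0.28, 1.04, -0.74 and -0.62 from 2 to 8 months (exact permutation p = 0.0286, 0.1, 0.0286 and 0.1). The 3 neuronal markers in the table were near the lowest values in 6 to 14 of 28 libraries, and Rbfox3, Tubb3, Slc17a7 and Gad1 were not in the table. Border macrophage markers, led by Mrc1, had summed differences of -0.27, -0.51, -0.41 and -0.27 from 2 to 8 months (exact permutation p = 0.0571, 0.1, 0.0571 and 0.4), and the genotypes overlapped at 2, 6 and 8 months. The summed astrocyte markers, led by Aqp4, differed by -0.14, -0.10, -0.70 and -1.07 (exact permutation p = 0.686, 0.8, 0.0286 and 0.3), with 1 high WT library at 8 months. Gfap was up-regulated at 6 and 8 months (1.52 and 1.80). Aqp4 was down-regulated at the same ages (-1.22 and -1.38) and Slc1a2 at 8 months (-2.14). Each Aqp4 call was lost without any of several single libraries, and the Slc1a2 call without WT replicate 1 (FDR = 0.076). In the same order of ages, monocyte markers had summed differences of -0.22, -0.87, 0.14 and 0.08 (exact permutation p = 0.2, 0.1, 0.657 and 0.8), with Ccr2 down-regulated at 4 months (-1.05; FDR = 0.0594 without WT replicate 1), and lymphocyte markers -0.10, -1.13, -0.65 and -0.38 (p = 0.686, 0.2, 0.114 and 0.5). Neuronal markers had -0.15, -0.80, -1.20 and -0.92 (exact permutation p = 0.686, 0.1, 0.0571 and 0.3) and endothelial markers -0.30, -0.51, -0.31 and -0.42 (p = 0.457, 0.2, 0.143 and 0.3). Erythroid markers had -0.03, -0.64, -1.17 and -0.80 (exact permutation p = 0.971, 0.5, 0.0571 and 0.5) and oligodendrocyte markers -0.09, -0.29, -0.66 and -0.59 (p = 0.771, 0.5, 0.0286 and 0.6). The WT library of 8 months with high astrocyte markers, replicate 1, also had the highest oligodendrocyte (10.79), erythroid (8.21) and neuronal (6.88) sums of its group. The other WT libraries had 8.81 and 8.00, 6.90 and 6.24, and 6.49 and 5.48. In rTg4510 replicate 1 of 8 months was highest of its group in these sums too. The permutations did not use the replicate numbers. At 8 months each rTg4510 library was below its same-numbered WT library for the neuronal, astrocyte, erythroid and oligodendrocyte sums. This was not so for the endothelial, lymphocyte, monocyte and border macrophage sums. At 6 months it was so for the neuronal, astrocyte, erythroid, oligodendrocyte and border macrophage sums, but not for the other 3. At 6 months DEGs in opposite directions also lay behind the endothelial and monocyte sums. Among endothelial markers Flt1 was up-regulated (1.89) and Pecam1 (-2.12) and Cdh5 (-0.86) were down-regulated. Flt1 was up-regulated and Pecam1 down-regulated at 4 and 8 months as well. The Flt1 call was lost at 4 months without WT replicate 4 (FDR = 0.0694) and at 8 months with only the groups compared (FDR = 0.114). Among monocyte markers at 6 months Vcan was up-regulated (1.38) and Plac8 (-1.36) and Ly6c2 (-0.86) were down-regulated. The calls of Cdh5, Vcan, Plac8 and Ly6c2 were each lost without any of 2 or more single libraries, and those of Vcan and Ly6c2 with the replicate block (FDR = 0.0591 and 0.0927). At 2 months the 10 most abundant genes took 39% to 41.8% of the summed linear signal in WT libraries and 35.5% to 40.1% in rTg4510. From 4 months on they took 42.4% to 46.4% in WT and 30.3% to 34.2% in rTg4510. The part of these shifts in the enzyme values was not tested.

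**Figure D5:**
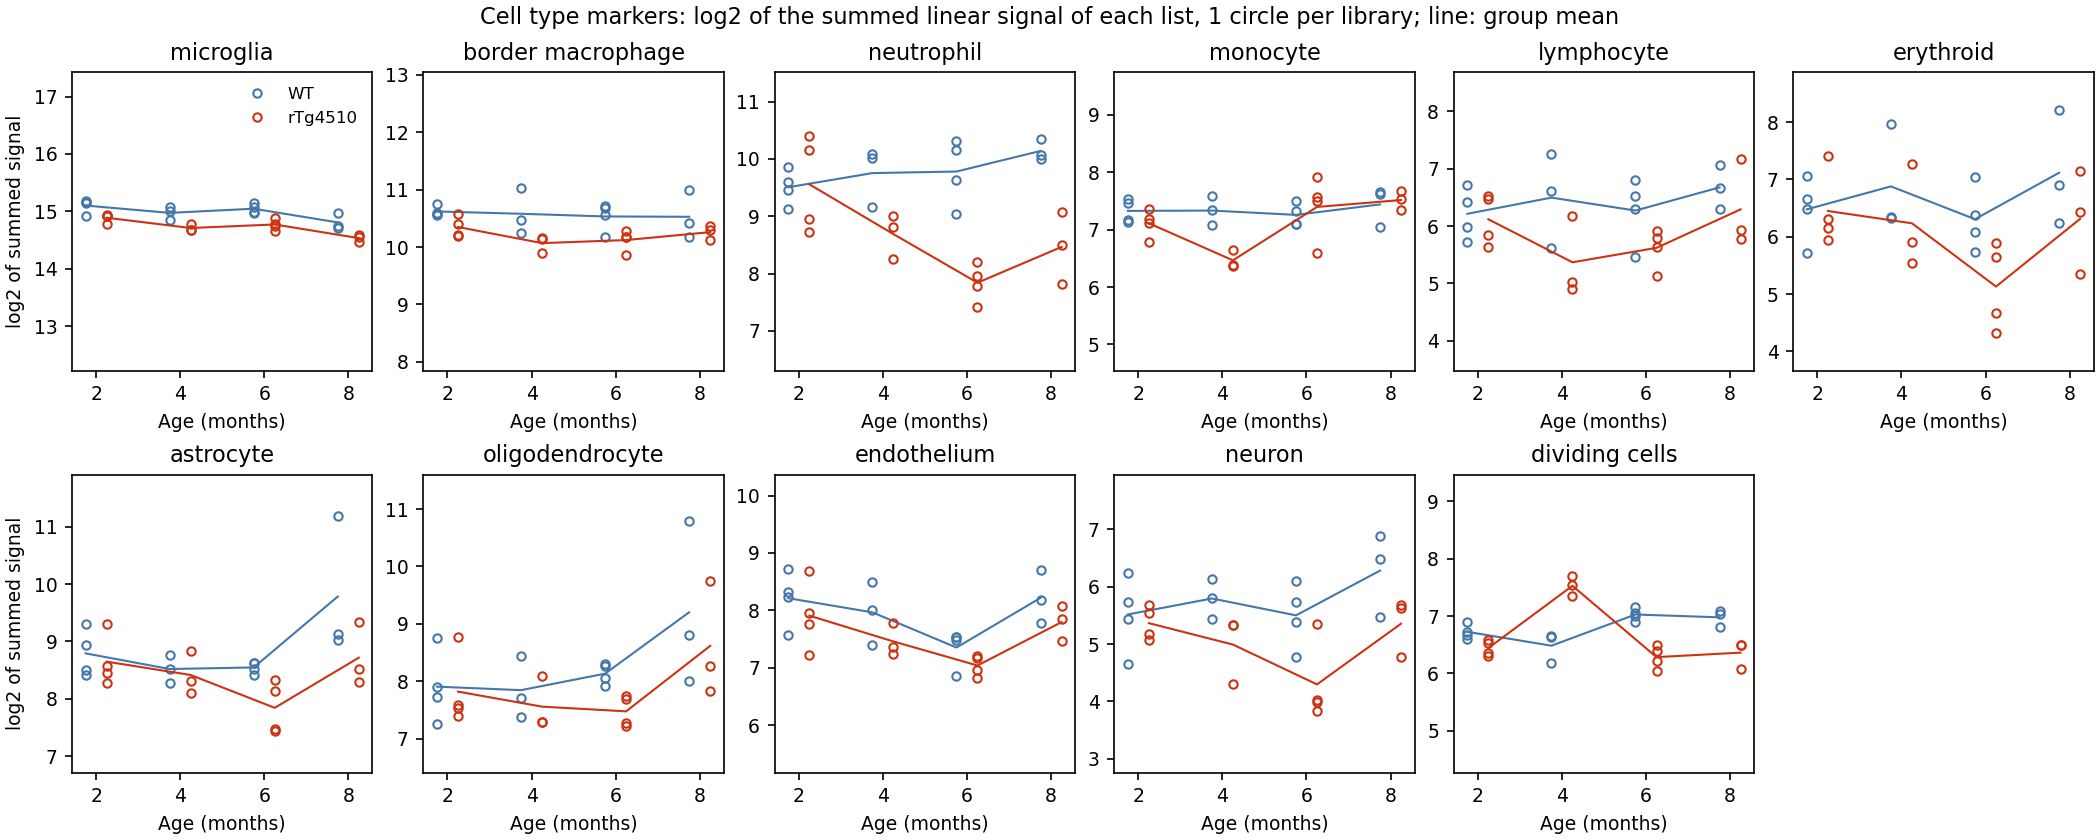
The log2 of the summed linear signal of each cell type marker list (vertical axis, 5.2 log2 units in every panel) is plotted against age in months for each library of WT (blue) and rTg4510 (red), with lines through the group means. Neutrophil markers part from 4 months on. The microglia sums of the genotypes also do not overlap from 4 months on, and their means differ by at most 0.27 at each age.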

How the data were processed

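Microglia RNA of 32 libraries was sequenced, and 28 that passed the study's quality control were used. The authors summed exon reads over runs, left out exons with few reads, combined the exons of a gene by robust regression and deposited median-normalized log2 signals. The submitters' processing notes name GRCm38. The aligner, annotation and strand setting are not given in the sources used here. Entrez identifiers were matched to RefSeq symbols for 17828 genes (95.9%). Group means of 2 genotypes at 4 ages were fitted with limma 3.58.1 in R 4.3.3 to all 18588 genes, with the ordinary variance and 20 residual degrees of freedom. Two-sided p-values were adjusted over all genes per contrast (Benjamini-Hochberg), and DEGs passed 0.05 on the FDR and 1.5 fold in size. P-values measure the spread between pooled-forebrain libraries. The fit was tested on simulated data with changes added to the rTg4510 libraries of 6 months. It called 69 of 100 genes changed by 1 on the log2 scale and 88 of 100 changed by 2. Among the unchanged genes 6 were called. A gene that was not a DEG may therefore still have changed. Promoters were searched with Python 3.11.15.

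The genes named were all 10 members, up to 3 up-regulated and 3 down-regulated genes per wider list by number of ages and then size, the most abundant gene of each marker list that is described, and up to 3 genes most correlated with a member, of which the nearest is given. Further DEGs of a list are named after their values were seen. The members and lists were chosen with earlier results of these data known. A value was called near the lowest when it lay within a factor of 3 of the lowest value of its library. Replicate numbers are in the labels without a stated meaning. Deviations of same-numbered libraries correlated at 0.131 to 0.153 at 6 months and 0.15 to 0.291 at 8 months, which pairs them by the values alone. Alternatives were moderated variance, all 32 libraries, the replicate block, quantile normalization, low genes left out, only the groups compared, no fold threshold and each library left out.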

Additional observations from a re-analysis of the deposited data

Results flagged for a closer look

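The Gpx1 signal of rTg4510 replicate 2 at 2 months was 12.46, apart from the other 3 libraries of its group at 12.75 to 12.77. The Sod1 signal of WT replicate 1 at 2 months was 8.66, apart from the other 3 at 8.41 to 8.44. Both gaps were large against the range of their group of 4 by Dixon's ratio (0.93 and 0.90). Of 40 groups of 4 libraries examined, 2 stood out in this way, and chance gives about 1 in 20. The genotype effect on Prdx1 differed between ages, being 0.80 higher at 4 than at 2 months by the test of the difference itself.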

How the results depend on the processing

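Among the members' fold changes under the alternatives that left out no single library, 233 of 240 kept their DEG status, 5 lost the call and 2 gained it. In 13 of the 240 the FDR crossed 0.05, of which 6 came with only the groups compared (Gclc, Gsto1, Prdx5 and Sod1) and 3 with quantile normalization (Gpx1), and the sign changed in 5, none of them a DEG. The single call at 2 months, Gsto1, fell to 0 members with all 32 libraries (FDR = 0.2), with only the groups compared (FDR = 0.0775) and with the replicate block (FDR = 0.0527). At 6 and 8 months the block changed no member's call, though the FDR of Gpx1 at 6 months fell to 0.0291. At 2 months same-numbered libraries correlated at 0.0649 to 0.167. Each library of that age correlated best with its own number except rTg4510 replicate 3, by 0.0649 against 0.0671 with WT replicate 1. The number may thus mark a pairing at 2 months too, where the block ended the Gsto1 call (FDR = 0.0527). At 4 months same-numbered libraries correlated at -0.0999 to 0.124, and the number is not taken as a pairing there. With all 32 libraries Sod1 was also a DEG at 4 months (0.85) and Sod2 at 8 months (0.61, FDR = 0.0498). In the same fit Gpx4 at 8 months no longer passed the FDR (0.0954). With no fold threshold, the members that passed from 4 to 8 months were 4, 8 and 7, and 2 changed from 2 to 4 months in rTg4510. Of all 18588 genes, 4317, 6332 and 4784 passed the FDR alone at 4, 6 and 8 months. In the rTg4510 step from 2 to 4 months 2828 did. With the threshold 1 member, Prdx1, changed in that step, and this count was 0 with quantile normalization and 0 with only the groups compared. When each library was left out, the members called at 2 months ranged from 0 to 1 and those at 6 months from 4 to 5, while the 4-month count stayed at 2 and the 8-month count at 4. Those that changed from 2 to 4 months in rTg4510 with the threshold ranged from 0 to 2, with 0 without rTg4510 replicate 4 at 2 months or replicate 2 at 4 months and 2 without replicate 1 at 4 months. The cause was not tested. Of 32 counts in the wider lists, 19 moved by over 1.5 times with no fold threshold, 12 with only the groups compared, 8 with all 32 libraries, 4 with low genes left out, 3 with quantile normalization and 3 with the replicate block. Under the block Mthfd2 lost its calls at 6 and 8 months, Gstt3 its call at 8 months, Msrb1 its call at 6 months and Ggct its call at 2 months. The files hold no counts, so counting error could not be given for low signals.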

Other observations

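The 4 libraries that failed the study's quality control were deposited, and their enzyme values stood partly apart from their groups. In the excluded rTg4510 library of 4 months the Prdx1 signal was 9.99 and the Sod1 signal 9.95, above the other rTg4510 libraries of that age (up to 9.63 and 9.07), whereas Gsto1 was 4.43 and Sod2 4.77, below all of them (from 5.58 and 5.92). Its Gpx4 signal was 5.99, beside 5.32 to 5.35 in the others. The excluded WT library of the same age had 8.00 for Prdx1 and 8.01 for Sod1, and Gpx1 was 11.85, beside 12.38 to 12.69 in the WT libraries kept. At 8 months the excluded rTg4510 library had 6.45 for Gsto1, 9.06 for Prdx1, 5.88 for Txnrd1 and 6.06 for Sod2, and the excluded WT library 5.42, 8.30, 5.38 and 5.19.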
